A study of Mus musculus with 8 samples.

Results

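A group of 7 genes of outer radial glia and of the glial matrix, Hopx, Tnc, Ptprz1, Bcan, Htra1, Sparcl1 and Entpd2, were followed across cell classes of the mouse embryonic cortex with and without added ShhN. These 7 of 27998 listed genes were taken by symbol, after earlier results of these data had shown several of them among the genes that differed most between the libraries in radial glia. The radial glia contrast given below is therefore a description of the values that chose them. The study profiled the cortex of CD1 mouse embryos at embryonic day 16.5 (E16.5) by droplet-based single-cell RNA sequencing. The control group was 4 wild type littermate samples. The other group was 4 samples that had received a ShhN plasmid by in utero electroporation at E13.5. The labels give no electroporation for the wild type group. ShhN therefore cannot be told apart from the electroporation and plasmid themselves. Electroporation reaches only some cells of a brain, and the labels name no sort, so the ShhN library mixes electroporated with other cells. The 4 samples of each group were pooled in 1 matrix with no map from cells to samples, so each group is 1 library and no comparison has a replicate check. Intervals are 95% and cover counting error only.

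Radial glia are the stem cells of the embryonic cortex. They give rise to Eomes-expressing intermediate progenitors and neurons and later to glia, and outer radial glia are a form whose cell body lies away from the ventricle. Around these cells lies a matrix of hyaluronan, chondroitin sulfate proteoglycans and glycoproteins, which binds growth factors and cell surface receptors. Hopx encodes a small homeodomain protein that does not itself bind DNA and marks outer radial glia. Tnc encodes tenascin-C, a glycoprotein of the stem cell niche, and Bcan encodes brevican, a hyaluronan-binding proteoglycan. Ptprz1 encodes a receptor tyrosine phosphatase that binds tenascins and pleiotrophin. Htra1 encodes a secreted serine protease, Sparcl1 the secreted matrix-associated protein hevin, and Entpd2 a cell surface enzyme that degrades extracellular ATP. Sonic hedgehog acts by binding Ptch1, which lets Gli factors switch on targets such as Gli1, Hhip and Ptch1 itself, and ShhN is its signalling amino-terminal fragment.

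The stretches just upstream of the start sites are shown for Entpd2, the member highest in the ShhN library relative to the wild type, and for the 4 members that were lower together. They come from RefSeq (GRCm38.p6), where 6 of the 7 members matched a row and Sparcl1 did not. Each runs 5′ to 3′ on the gene's strand, up to 250 bases before the RefSeq start, without bases that lie inside the annotated gene. The RefSeq start of Bcan lies upstream of the GENCODE gene given below. Capitals mark motif matches.
Entpd2: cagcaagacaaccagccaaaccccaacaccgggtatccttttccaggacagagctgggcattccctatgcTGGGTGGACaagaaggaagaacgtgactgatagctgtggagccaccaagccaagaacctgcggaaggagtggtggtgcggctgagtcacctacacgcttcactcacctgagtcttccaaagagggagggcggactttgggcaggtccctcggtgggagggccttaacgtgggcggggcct
Tnc: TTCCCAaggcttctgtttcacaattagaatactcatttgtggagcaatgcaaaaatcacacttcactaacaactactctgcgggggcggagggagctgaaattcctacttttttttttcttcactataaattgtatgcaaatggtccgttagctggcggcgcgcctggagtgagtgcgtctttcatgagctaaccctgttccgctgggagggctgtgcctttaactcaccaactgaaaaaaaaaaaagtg
Hopx: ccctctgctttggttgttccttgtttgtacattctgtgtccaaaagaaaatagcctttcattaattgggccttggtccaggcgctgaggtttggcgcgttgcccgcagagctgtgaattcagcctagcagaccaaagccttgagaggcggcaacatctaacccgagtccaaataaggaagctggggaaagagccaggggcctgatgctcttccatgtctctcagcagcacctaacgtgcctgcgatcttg
Bcan: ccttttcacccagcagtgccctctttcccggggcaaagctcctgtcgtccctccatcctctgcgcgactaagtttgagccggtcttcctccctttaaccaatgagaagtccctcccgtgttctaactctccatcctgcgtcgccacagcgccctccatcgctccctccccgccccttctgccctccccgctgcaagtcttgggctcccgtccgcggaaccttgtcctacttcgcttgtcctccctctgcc
Htra1: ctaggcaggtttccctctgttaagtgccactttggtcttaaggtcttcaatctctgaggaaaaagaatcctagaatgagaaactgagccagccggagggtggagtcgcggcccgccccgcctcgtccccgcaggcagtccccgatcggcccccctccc
The windows are chr2:25395624-25395873 on the plus strand for Entpd2, chr4:64047016-64047265 on the minus strand for Tnc, chr5:77115124-77115373 on the minus strand for Hopx, chr3:88000357-88000606 on the minus strand for Bcan and chr7:130935953-130936110 on the plus strand for Htra1. Both strands of the 250 bases were searched for TGGGTGGTC (Gli), TGGGTGGNC (the same with 1 free letter, chosen after the Entpd2 sequence was seen), TTCNNNGAA (STAT), TGGGAA (RBPJ), TTGGCA (an NFI site arm) and AACAAT (SOX). The first is a case of the second, and the others do not contain each other. The Entpd2 window holds TGGGTGGAC, which begins 180 bases before the start and matches the Gli motif with the free letter. That motif was found in 1.34% of 32851 RefSeq promoter windows, and the exact Gli motif in 0.225%. The Tnc window holds TTCCCA at its far end, the RBPJ letters on the other strand, found in 21.6% of windows. A second Tnc start, inside the annotated gene, has TGGGAA 81 bases before it and the NFI letters on the other strand (12.3% of windows). The second Hopx start, also inside the gene, has a SOX match (9.42% of windows). No letters of these motifs were in the Bcan and Htra1 windows, in that of Ptprz1, or in the Hopx window shown, and STAT letters, present in 7.02% of windows, were in none of them. A match is a string of letters and not a site of binding.

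All 7 genes are protein coding. In GENCODE (GRCm38) Hopx spans chr5:77086988-77115121 and Sparcl1 chr5:104079111-104113733, both on the minus strand. Tnc lies at chr4:63959785-64047015, Bcan at chr3:87987531-88000230, also on the minus strand, and Ptprz1 at chr6:22875502-23052916 on the plus strand. Htra1 lies at chr7:130936111-130985660 and Entpd2 at chr2:25395874-25401321, on the plus strand. Exons of Entpd2 overlap those of Npdc1 on the same strand, and the counting cannot be checked for reads shared between them. Transcripts were counted by unique molecular identifiers (UMIs), and levels are in CPM, the UMIs of a gene scaled to 1000000 UMIs of the class. In radial glia-like cells Npdc1 stood at 120 CPM (wild type) and 129 CPM (ShhN). Hopx has an antisense neighbour, Hopxos, which had 1 UMI in each library there.

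The wild type library held 6924 cells and the ShhN library 8075, with medians of 6279 and 6683 UMIs per cell. The 2 libraries shared 71 cell barcodes. Cells were clustered without the 7 genes, and clusters were named from marker lists. Of 23 clusters, 1 was radial glia-like, with 170 wild type and 246 ShhN cells. All 14 radial glia markers were raised in it, and 7 were among its 10 leading genes. The cluster was named from these same markers, so they are no separate check of the name. They summed to 17574 CPM in the wild type and 14643 in ShhN. A cluster led by Olig1 and Olig2, with 28 wild type and 401 ShhN cells, also had 13 of the 14 raised. Markers of glial or olfactory bulb intermediate progenitors were 3 of its leading genes. It was named after them and kept apart from the radial glia-like class. As a check of the treatment, Shh had 0 UMIs in wild type and 15 in ShhN radial glia-like cells. Ptch1 stood at 10.1 CPM in the wild type and 103 in ShhN, Gli1 at 1.44 and 20.9, and Hhip had 0 and 64 UMIs.

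In radial glia-like cells, Hopx, Tnc, Bcan and Htra1 were lower in the ShhN library, Sparcl1 and Entpd2 were higher, and Ptprz1 did not differ beyond counting error. Ratios are log2 of ShhN over wild type. Hopx had 122 UMIs in the wild type and 56 in ShhN, or 87.7 [72.8, 105] and 31.6 [23.9, 41.1] CPM. The log2 ratio was -1.47 [-1.96, -1.0]. Tnc had 138 and 80 UMIs, or 99.2 [83.4, 117] and 45.2 [35.8, 56.2] CPM, a log2 ratio of -1.14 [-1.55, -0.73]. Neither pair of intervals overlapped.

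Of the matrix proteins, Bcan had 123 UMIs in the wild type and 54 in ShhN, or 88.4 [73.5, 106] and 30.5 [22.9, 39.8] CPM (log2 ratio -1.54 [-2.03, -1.06]). Htra1, the protease, had the lowest ratio of the 7, with 119 and 27 UMIs, or 85.6 [70.9, 102] and 15.2 [10.0, 22.2] CPM, a log2 ratio of -2.49 [-3.15, -1.88]. Sparcl1 went the other way. It had 49 UMIs in the wild type and 133 in ShhN, or 35.2 [26.1, 46.6] and 75.1 [62.9, 89.0] CPM, a log2 ratio of 1.09 [0.61, 1.60]. Entpd2, the ATP-degrading enzyme, had 5 UMIs in the wild type and 96 in ShhN, or 3.60 [1.17, 8.39] and 54.2 [43.9, 66.2] CPM, a log2 ratio of 3.91 [2.64, 5.57]. Ptprz1, the receptor phosphatase, had 641 and 819 UMIs, and its level was 461 [426, 498] in the wild type and 462 [431, 495] in ShhN. Its log2 ratio of 0.01 had an interval of -0.15 to 0.16. By counting error alone this leaves no room for a difference as large as those of the other 6. Under other processing settings the ratio ran from -0.71 to 0.38.

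**Figure D1:**
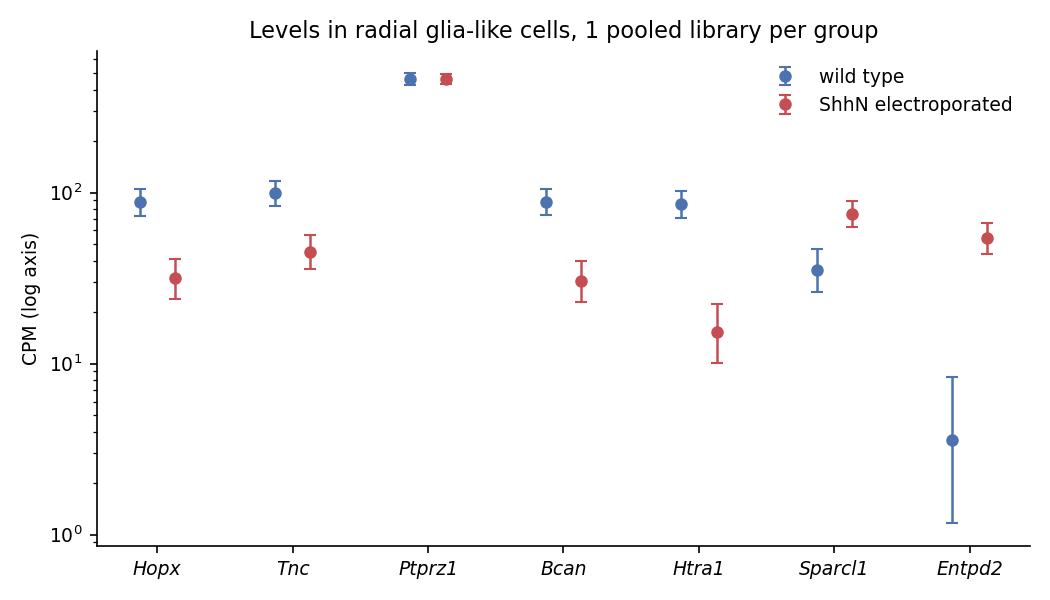
Level of each gene in radial glia-like cells (CPM, log axis) in the wild type (blue) and ShhN electroporated (red) library, with exact Poisson 95% intervals. Hopx, Tnc, Bcan and Htra1 are lower in the ShhN library, Sparcl1 and Entpd2 are higher, and the intervals overlap for Ptprz1.

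A size rule was applied to each gene whose UMIs in the 2 libraries summed to 50 or more. It asks that the log2 ratio reach 1 or -1 and that its interval stay beyond 0.5 or -0.5 on that side. Of 6712 genes in radial glia-like cells, 34 were lower by this rule (0.507%) and 36 were higher (0.536%). All 7 members were measured, of which 4 were lower and 2 higher. These shares are given only as the background, since the same contrast chose the genes. The median log2 ratio of the 7, which joins genes of both directions, was -1.14, against -0.03 over all measured genes. The same contrast chose the genes, so this distance too is only a description.

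The share of cells with a UMI followed the levels. Each cell was thinned to 4500 UMIs, which left 147 wild type and 201 ShhN radial glia-like cells. Hopx was found in 27.2% [20.2, 35.2] of the wild type cells and in 12.9% [8.63, 18.4] of those from the ShhN library, and Tnc in 28.6% and 12.9%. Bcan was seen in 29.3% and 10.9%, and Htra1 in 27.9% and 6.47%. Sparcl1 was found in 10.9% [6.35, 17.1] of the wild type cells and in 22.4% [16.8, 28.8] of those from ShhN, so its intervals overlapped. Entpd2 was seen in 1.36% [0.165, 4.83] and 22.4%. Ptprz1 was seen in 83.7% and 84.1%. Without thinning the shares were 32.4% and 15.9% for Hopx, 42.9% and 20.3% for Tnc, 38.8% and 17.5% for Bcan and 41.2% and 8.54% for Htra1. They were 14.1% and 26.8% for Sparcl1, 2.94% and 28.0% for Entpd2 and 89.4% and 90.7% for Ptprz1. Median depth was 7023 UMIs in the wild type and 6262.5 in ShhN.

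The background from free RNA was low for most of the 7. In the mural-like cluster, of 38 wild type and 42 ShhN thinned cells (median depths of 7114 and 7589 UMIs before thinning), Hopx, Bcan and Ptprz1 were each seen in 0 and 1, Tnc in none and Entpd2 in 2 and 0. No Htra1 UMI was found in 793 deep layer neuron-like cells of the wild type or in 995 of ShhN, which allows shares of up to 0.378% and 0.302%. The wild type share of Entpd2 in radial glia-like cells, 1.36%, was below its share in the mural-like cluster, 5.26% [0.644, 17.7], and above that in deep layer neuron-like cells, 0.252% [0.0306, 0.908]. Its interval overlapped both, so it could not be told from background at this depth. For Sparcl1 the neurons are no background, since 28.8% and 22.1% of deep layer neuron-like cells had a UMI. Barcodes of 1 to 50 UMIs, which hold free RNA, had Sparcl1 at 27.5 CPM in the wild type and 23.5 in ShhN. Ptprz1 stood at 212 and 167 CPM in the same barcodes.

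**Figure D2:**
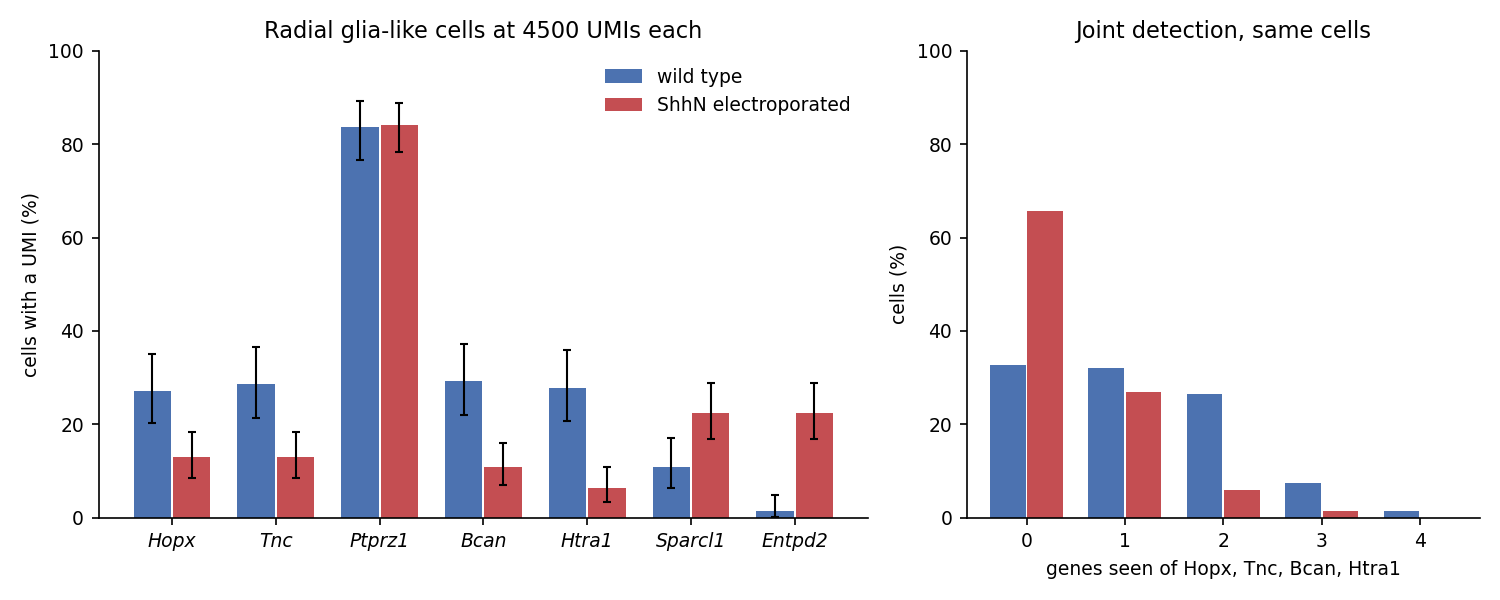
Left, percent of radial glia-like cells with a UMI of each gene after thinning to 4500 UMIs per cell (147 wild type and 201 ShhN cells), with Clopper-Pearson 95% intervals. Right, percent of the same cells in which 0 to 4 of Hopx, Tnc, Bcan and Htra1 were seen: none was seen in 32.7% of the wild type cells and in 65.7% of the others.

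Joint detection of the 4 lower genes was counted in the same cells. Each of them was seen in fewer ShhN cells, so fewer cells with several of them follow from that. The joint counts are no separate result. At least 2 of Hopx, Tnc, Bcan and Htra1 were seen in 52 of 147 wild type cells (35.4% [27.7, 43.7]) and 15 of 201 ShhN cells (7.46% [4.24, 12]). None was seen in 32.7% and 65.7%. Pairs of members did not all share cells alike. Sparcl1 was seen in 26.2% of the wild type cells with a Tnc UMI and 4.76% of those without. In the ShhN library these shares were 57.7% and 17.1%, so Tnc and Sparcl1 were seen together more often in both libraries although their levels differed between them in opposite directions. Htra1 was seen in 41.9% of wild type cells with Bcan and 22.1% without, and in 18.2% and 5.03% of those from ShhN. In the ShhN library 0 of 13 cells with Htra1 had Sparcl1 against 23.9% of the others, and 13 cells are too few to show a difference from that share. The cells are not replicates, so these shares carry no test.

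The differences were compared within parts of the class. Cells with a UMI of the division genes Mki67 or Top2a numbered 50 of 147 in the wild type and 82 of 201 in ShhN after thinning. Hopx was at 107 CPM in the wild type and 40.7 in ShhN among them, and at 89.3 and 29.9 among the others. Bcan was at 97.8 and 35.2 with those genes and at 89.3 and 24.3 without. Htra1 was at 66.7 and 10.8 with and at 101 and 20.5 without. Tnc was at 151 and 43.4 with, but at 75.6 [52.0, 106] and 50.4 [33.2, 73.4] without, where the intervals overlapped. With cells carrying either division gene left out before thinning, the log2 ratio of Tnc was -0.87 and that of Sparcl1 0.86, and neither met the size rule. Entpd2 then had a log2 ratio of 5.15 but fewer than 50 UMIs.

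In the ShhN library, 72 thinned cells had a UMI of Ptch1, Gli1 or Hhip and 129 had none. Entpd2 was at 89.5 [59.9, 129] CPM in the first and 46.5 [30.7, 67.7] in the second. Htra1 was at 3.09 [0.08, 17.2], from 1 UMI, in the first and 24.1 [13.2, 40.5] in the second. The intervals overlapped for both genes. Hopx, at 34.0 and 34.5, Bcan, at 27.8 and 29.3, and Tnc, at 46.3 and 48.2, were alike in both. The lower Hopx, Tnc and Bcan of the ShhN library were therefore also measured in cells in which no UMI of the 3 hedgehog targets was seen, which at this depth does not show that the targets were silent. Sparcl1 was at 89.5 and 70.6, also with overlapping intervals. In the wild type only 9 thinned cells had such a UMI.

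The radial glia-like cells were split further into 9 sub-clusters, a step added after the first results were seen. One, led by Hhip, Tbc1d22a and Ptch1, held 52 ShhN cells and 1 wild type cell, and another, led by Igf1 and Tk1, held 23 and 1. In the Hhip-led cells of the ShhN library Sparcl1 stood at 109 CPM and Entpd2 at 83.7, while Hopx stood at 11.2, Tnc at 16.7, Bcan at 22.3 and Htra1 at 2.79. With both one-library sub-clusters left out, the log2 ratio was -1.08 [-1.59, -0.60] for Hopx, -1.31 for Bcan, -2.03 for Htra1 and 3.77 for Entpd2, all past the size rule. Tnc, at -0.74, and Sparcl1, at 0.96, no longer met it.

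Among sub-clusters with at least 10 cells from each library, Htra1 was lower in ShhN in all 5, with level intervals that overlapped in those led by Slc38a1 and by Eomes. Its log2 ratio was -0.63 [-1.63, 0.32] in the first of these and -2.70 [-5.93, -0.47] in the second. In the one led by the mitosis genes Cdc20 and Cks2, with 31 wild type and 39 ShhN cells, Htra1 stood at 102 and 13.3 CPM and Tnc at 161 and 39.8. Sparcl1 stood at 47.2 and 106 there, with overlapping level intervals and a log2 ratio of 1.17 [0.17, 2.26]. In the one with Fbxo5 and Top2a among its leading genes, with 10 and 23 cells, Htra1 stood at 190 and 5.07, Sparcl1 at 11.9 and 162, and Tnc at 83.2 and 157, the opposite order to the class as a whole but with overlapping intervals. The sub-cluster led by the globin genes Hbb-bs and Hbb-bt, followed by Tnc and Aldoc, with 27 wild type and 14 ShhN cells, had Bcan at 148 and 28.2 and Htra1 at 121 and 0. Its Sparcl1 stood at 114 and 98.6 and its Hopx at 108 and 70.4. The level intervals of Bcan, Sparcl1 and Hopx overlapped there, and those of Htra1 did not. The log2 ratio of Bcan was -2.39 [-5.53, -0.37], while the ratio intervals of Sparcl1 and Hopx held 0. Hopx was densest in a sub-cluster led by Wnt8b, a gene of the medial cortical edge, at 393 CPM in 11 wild type and 411 in 3 ShhN cells. In the sub-cluster led by Eomes and Gadd45g Hopx stood at 29.4 and 42.4, with overlapping intervals. The Wnt8b-led cells held 33 of the 122 wild type Hopx UMIs, and without them the log2 ratio of Hopx was -1.29. A sub-cluster led by Nrxn3 and Meg3, with the neuronal genes Neurod2 and Dcx also leading, held another 31 in 17 wild type cells. It had 7 ShhN cells and a median of 13153 UMIs, and whether its droplets were mixed was not tested.

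**Figure D3:**
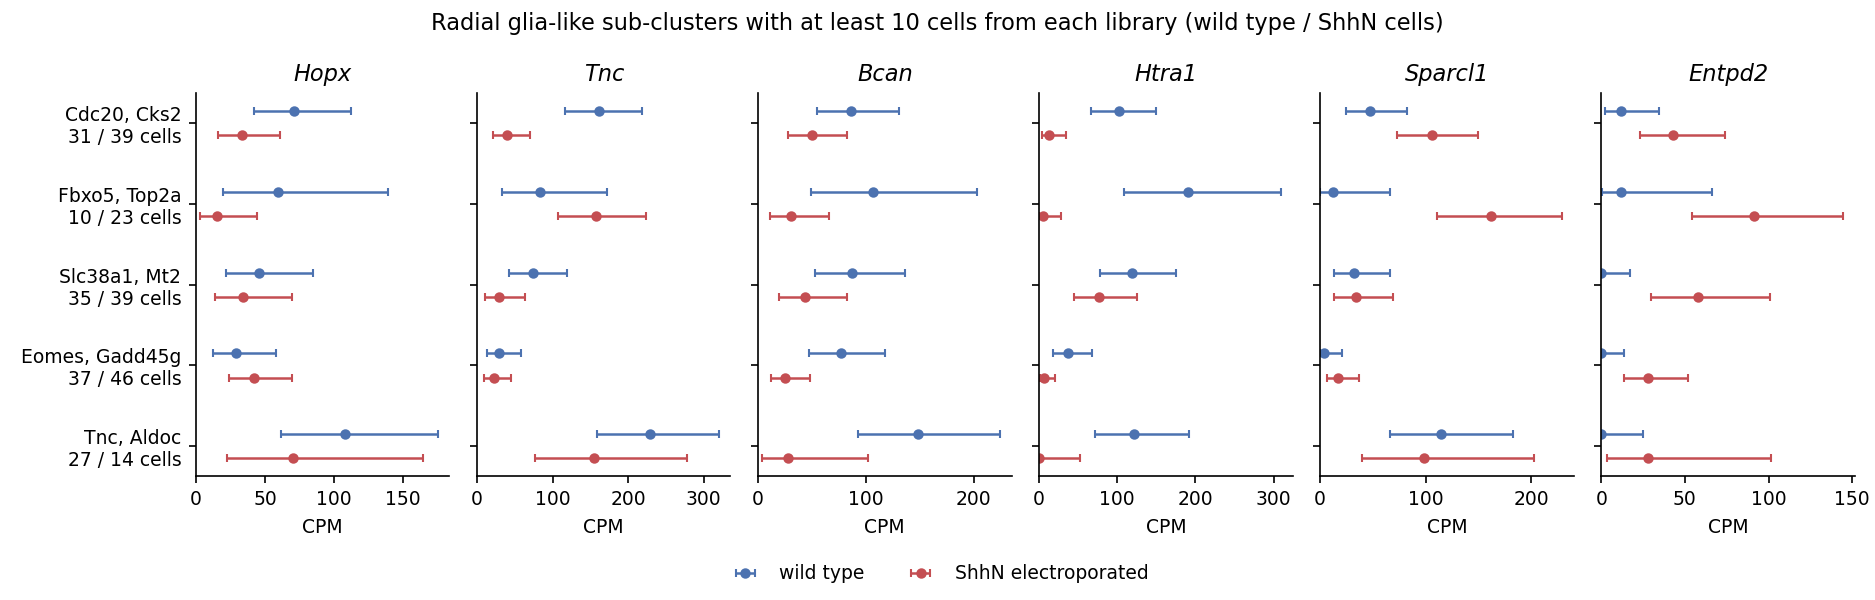
Levels (CPM, linear axes) of 6 genes in the 5 radial glia-like sub-clusters with at least 10 cells from each library, named by 2 of their leading genes other than globins and histones, with exact Poisson 95% intervals. Htra1 is lower in the ShhN library (red) than in the wild type (blue) in each, while Sparcl1 is higher mainly in the sub-clusters led by Cdc20 and by Fbxo5.

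Other measures of the class moved with the libraries. The 12 Eomes progenitor markers, all seen in both, summed to 1092 CPM in the wild type and 680 in ShhN. The 8 markers of glial or olfactory bulb progenitors summed to 266 (7 seen, Gsx2 at 0) and 751 (8 seen). The 7 erythroid markers summed to 979 and 4697, all seen in both. With free RNA subtracted, taking all globin UMIs of the class as free (4.25% of wild type and 36.7% of ShhN UMIs), the log2 ratio was -0.97 for Hopx and -0.61 for Tnc, and neither met the size rule. Bcan (-1.07), Htra1 (-1.97), Sparcl1 (1.51) and Entpd2 (4.45) still met it. Endothelial markers summed to 22.3 and 36.1 CPM, with Cldn5, Flt1, Kdr, Cdh5 and Esam at 0 in the wild type and Kdr, Cdh5 and Esam at 0 in ShhN. Oligodendrocyte precursor markers summed to 2.88 and 11.3, with Pdgfra, Sox10 and Gpr17 at 0 in both.

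Across classes the 7 genes had different ranges. The classes ranked are those with at least 30 cells in the library. Of all Tnc UMIs in cells, radial glia-like cells held 83.1% in the wild type and 81.6% in ShhN, the highest shares of the 7. They held 69.3% and 45.5% of Hopx, 43.2% and 25% of Bcan and 64.7% and 35.5% of Htra1. For Entpd2 they held 17.9% in the wild type and 78.7% in ShhN. Hopx, Tnc and Bcan were highest in radial glia-like cells in both libraries. The next class ranked in the wild type was Eomes progenitor-like for all 3, at 4.84, 2.90 and 13.54 CPM, with intervals clear of those of radial glia. Cells like glial or olfactory bulb intermediate progenitors, with 28 wild type cells, were not ranked there. They stood higher than the Eomes class, at 17.2, 27.5 and 51.5 CPM for Hopx, Tnc and Bcan. Their Bcan interval, 28.8 to 85.0, overlapped that of radial glia-like cells. In ShhN the interval of Hopx in radial glia-like cells overlapped that of the mural-like cluster, at 11.6 CPM from 6 UMIs.

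Htra1 changed place between libraries. In the wild type it was highest in radial glia-like cells, ahead of the mural-like cluster at 33.9 [19.4, 55.0]. In ShhN the mural-like cluster was first, at 48.4 [31.3, 71.5], and radial glia-like cells second, without overlap. The mural-like cluster of 53 and 46 cells was led by Rgs5, Igfbp7 and Cldn5 and also had raised endothelial and microglial markers. Sparcl1 was highest there, at 1392 CPM in the wild type and 783 in ShhN. Deep layer neuron-like cells followed in the wild type, at 95.3, ahead of radial glia-like cells. In ShhN radial glia-like cells, at 75.1, and deep layer neuron-like cells, at 70.8, had overlapping intervals.

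Ptprz1 was spread over neurons as well, and radial glia-like cells held only 5.01% and 6.05% of its UMIs. Upper layer neuron-like cells stood at 445 [435, 456] in the wild type, which overlapped radial glia-like cells, and at 420 in ShhN. Deep layer neuron-like cells stood at 408 and 366 and medial cortex neuron-like cells at 221 and 216. Over all cells the log2 ratio of Ptprz1 was -0.22 and that of Sparcl1 -0.55, so the sign for Sparcl1 was opposite to that in radial glia. Of 13032 genes over all cells, 242 (1.86%) were lower by the size rule, with Tnc and Htra1 among them, and 371 (2.85%) were higher, with Entpd2 among them.

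**Figure D4:**
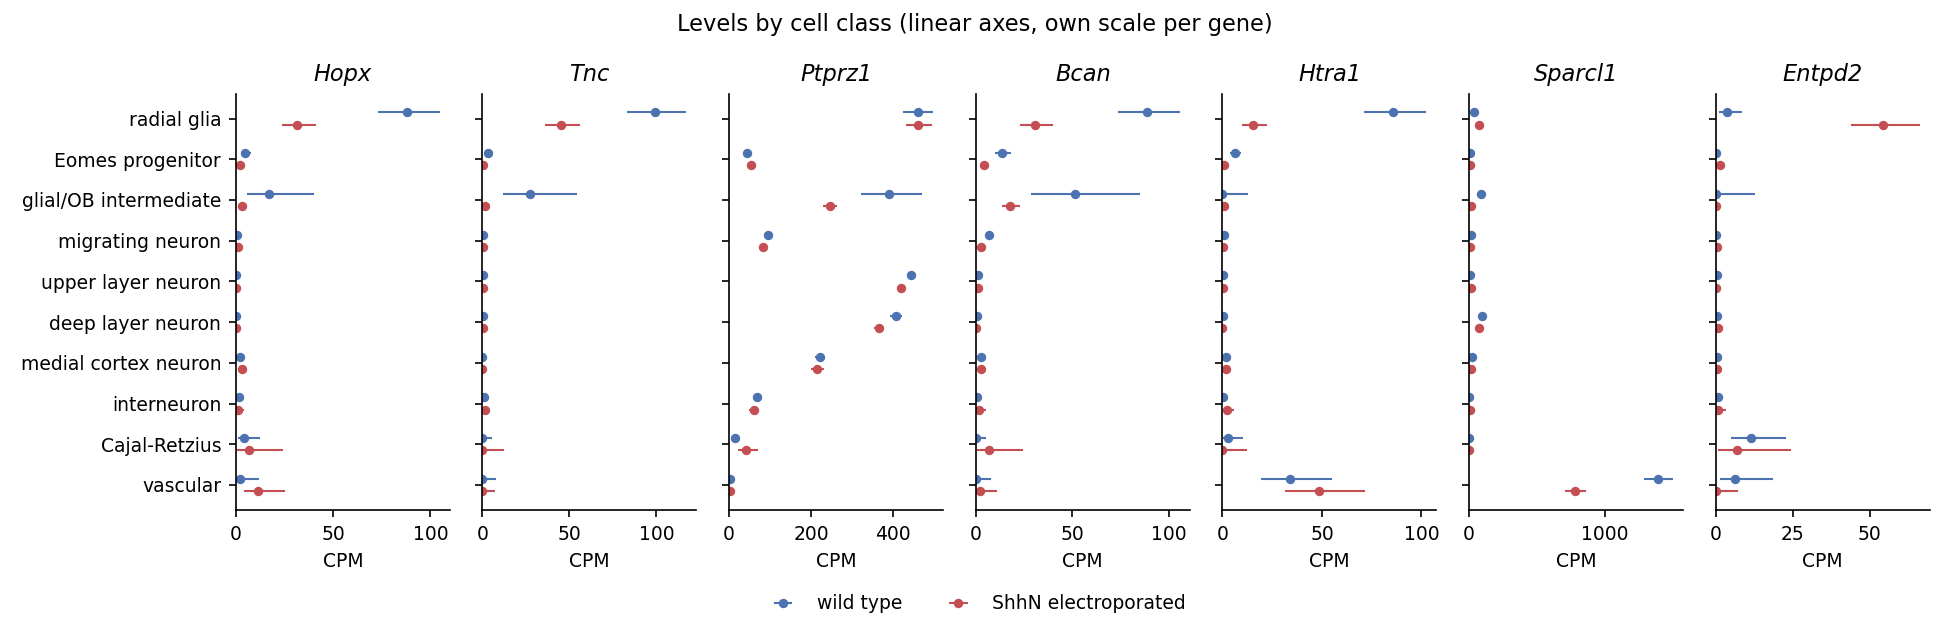
Level of each gene (CPM, linear axes with a scale for each gene) by cell class in the wild type (blue) and ShhN (red) library, with exact Poisson 95% intervals. Hopx, Tnc and Bcan peak in radial glia-like cells in both libraries, Ptprz1 is spread over radial glia and neurons, and Sparcl1 peaks in the vascular (mural-like) cluster at 1392 and 783 CPM.

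Eomes progenitor-like cells, the neurogenic daughters of radial glia, numbered 453 in the wild type and 968 in ShhN, in 3 clusters. The 7 genes were sparse in them. Bcan had 42 wild type and 30 ShhN UMIs, or 13.54 [9.76, 18.3] and 4.21 [2.84, 6.01] CPM, a log2 ratio of -1.69 [-2.41, -0.98]. Ptprz1 had 135 and 385 UMIs, or 43.5 and 54.0 CPM (log2 ratio 0.31 [0.02, 0.60]), and Sparcl1 had 21 and 52 (0.11 [-0.65, 0.91]). Hopx had 15 and 17 UMIs, Tnc 9 and 4, Htra1 19 and 6 and Entpd2 0 and 9. Of 9232 genes, 212 were lower by the size rule (2.3%) and 248 were higher (2.69%). Only 3 members were measured, of which Bcan was lower and none was higher.

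The 3 clusters divided unequally between libraries, and the Bcan difference moved with them. The cluster led by Top2a held 75 wild type and 417 ShhN cells, the one led by Cenpa, Cdk6 and Eomes 79 and 401, and the one led by Eomes, Mfap4 and Neurog2 299 and 150. In the last, Bcan stood at 18.8 CPM in the wild type and 20.2 in ShhN, with 36 and 19 UMIs. With both clusters of mostly ShhN cells left out, the log2 ratio of Bcan was 0.11, and the lower call was lost. Within that cluster Hopx was at 5.21 and 13.8, Tnc at 3.65 and 2.13 and Htra1 at 6.78 and 5.31, all with overlapping intervals of the levels. The log2 ratio of Hopx there was 1.41 [0.10, 2.76], above 0 and opposite in sign to that in radial glia-like cells. The ratio intervals of Tnc and Htra1 held 0. Free RNA stood close to the class levels for Bcan, Htra1 and Hopx. In it Bcan was at 12.3 CPM in the wild type and 5.03 in ShhN, Htra1 at 5.70 and 0.84 and Hopx at 3.80 and 2.52. For Ptprz1 free RNA stood above the class levels, at 212 and 167 CPM. The same held for Sparcl1, at 27.5 and 23.5 in free RNA against 6.77 and 7.29 in the class. Erythroid markers summed to 15394 and 4167 CPM in the class, with all 7 seen in both libraries. With free RNA subtracted in the same way, as 66.9% of wild type and 32.5% of ShhN UMIs, the log2 ratio of Bcan was -1.72, but fewer than 50 UMIs were left and the lower call was lost. In migrating neuron-like cells Bcan was lower as well, with 62 and 41 UMIs and a log2 ratio of -1.36 [-1.96, -0.77], where 104 of 10293 genes were lower (1.01%). That class joins 4 clusters that also divided unequally between libraries, and in none of them did the ratio of Bcan differ from 0 beyond its interval. It was -0.91 [-2.36, 0.57], -0.51 [-1.26, 0.22] and 0.08 [-3.23, 2.47] in 3 of them, and the other had 0 and 3 UMIs.

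Other genes of the same families and pathways were read from lists. In radial glia-like cells, of 12 other outer radial glia genes 5 were measured and none met the size rule, with a median log2 ratio of -0.26. Fam107a, a marker of outer radial glia in primates, had 0 UMIs in both libraries. Pea15a, with the most UMIs, stood at 0.41 and Palld at 0.94. Slco1c1, a glial thyroid hormone transporter named after its values were seen, had 36 and 6 UMIs, under the minimum. Of 14 genes of the hyaluronan and chondroitin sulfate matrix 2 were measured, Ncan (neurocan, -0.42) and Cspg5 (-0.72), both below 0 and neither past the rule. Of 11 ligands and partners of Ptprz1, 6 were measured, 5 of them below 0 and none past the rule. Its ligand genes Ptn and Mdk stood at -0.46 and -0.34.

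Of 16 HtrA family members, matrix proteases and inhibitors 7 were measured and 1 was higher, Adamts1, a protease that cleaves proteoglycans, with 17 and 61 UMIs and a log2 ratio of 1.49 [0.70, 2.36]. Htra2, the mitochondrial relative of Htra1, stood at 0.82. Of 8 SPARC family and kin genes 4 were measured and none met the rule, with Sparc itself at -0.04 and Fstl1 at -0.12. Of 8 integrins 3 were measured and none met it, with Itgb1 at 0.07 and Itgb8 at 0.37. Of 15 purine handling genes 2 were measured, Adk at -0.05 and Entpd6 at -0.24, neither past the rule, and Entpd1 and Entpd3, relatives of Entpd2, had 2 UMIs in each library and none. Of 20 genes of glial maturation 17 were measured, 12 of them below 0. The median of that list was -0.19, and Slc1a3, the glutamate transporter GLAST, stood at 0.49.

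In Eomes progenitor-like cells, where cluster makeup differed as above, 6 listed genes were lower by the rule and none of the lists beside the hedgehog targets had a higher one. They were Stat3 (-1.34), Sparc (-1.71), Smoc1 (-1.10), the protease inhibitor Timp4 (-1.49), Aldoc (-2.07) and Mt3 (-1.53). The 14 radial glia markers, all seen in both libraries, summed to 3080 CPM in the wild type and 2004 in ShhN in that class.

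Likeness of pattern was measured as the Pearson correlation of log2 levels (with 10 CPM added) over 19 class-by-library profiles of at least 30 cells. The profiles share libraries, so the values are descriptions. Aldoc, a glycolytic enzyme of radial glia and astrocytes, was among the 3 genes most like Hopx (0.94), Tnc (0.98) and Bcan (0.93). Hopx was also close to Tnc (0.93) and Mt2 (0.92), and Tnc to Scrg1 (0.98) and Eepd1 (0.97). Bcan was closest to Fgfr3, a fibroblast growth factor receptor of glia (0.94), and Kcnj10, a glial potassium channel (0.94). Htra1 was closest to Tanc1 (0.94), Slc9a3r1 (0.93) and Plce1 (0.93). Sparcl1 was close to Ctsz (0.96) and Arhgap29 (0.94). Ptprz1 was closest to Eef1g (0.90), Fam136a (0.90) and Zfp239 (0.86). Entpd2 had lower values, with Cldn12, Xpot and Fgfbp3 each at 0.82. Among the members themselves, Hopx and Htra1 correlated at 0.78, Bcan and Htra1 at 0.54 and Hopx and Sparcl1 at 0.19.

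The log2 ratios in radial glia-like cells were recomputed under other settings. Those of Hopx, Tnc, Bcan and Htra1 were below 0 and that of Entpd2 above 0 under all 18 settings run. The direction held, but calls by the size rule did not all hold: those of Hopx and Tnc were lost with free RNA subtracted, and the number of members lower fell from 4 to 2. Sparcl1 was above 0 under 15 of them. It was below 0 under the other 3, all of which drew the radial glia class otherwise: -0.71 at a clustering resolution of 0.5, -0.61 with clusters from the wild type cells alone and -0.27 with cells chosen by marker counts. The first of these classes held 332 wild type and 1345 ShhN cells. No separate class of glial or olfactory bulb intermediate progenitors was named at that resolution.

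**Figure D5:**
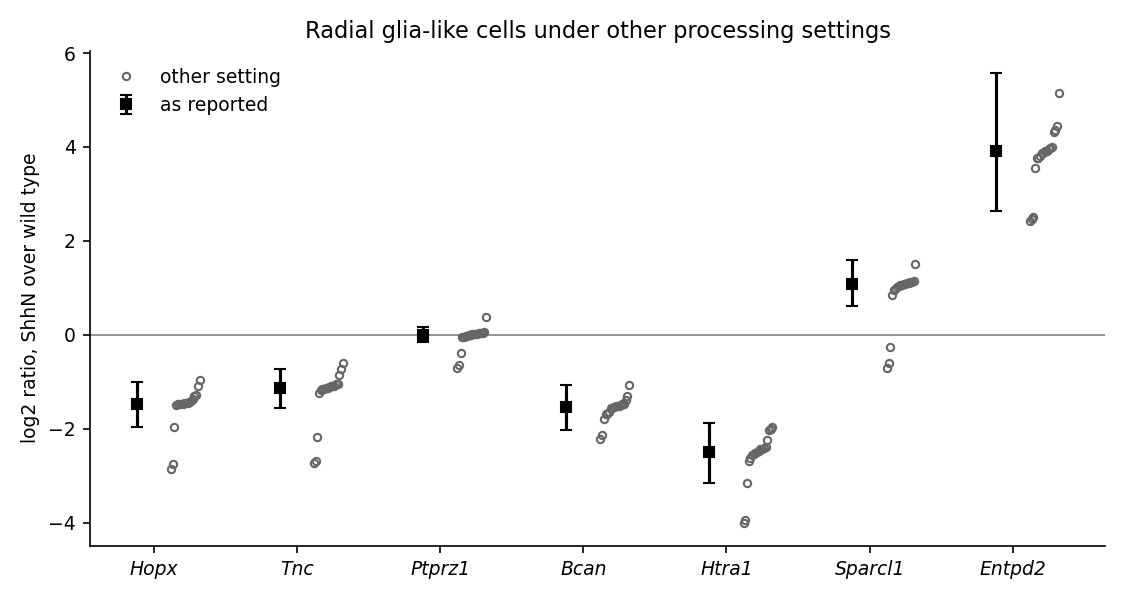
Log2 ratio, ShhN over wild type, of each gene in radial glia-like cells as reported (black square with its 95% interval) and under 18 other settings of cell calling, clustering, class, scaling, depth and free RNA (open circles). Hopx, Tnc, Bcan and Htra1 stay below 0 and Entpd2 above 0 in all, while Sparcl1 falls below 0 in 3.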

How the data were processed

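Droplet single-cell libraries were read as 2 matrices of whole-number UMI counts, deposited by the authors with 1 matrix per group. Cell Ranger, StringTie, Seurat 3 and the build mm10 are named in the submitters' processing notes, without their role. The matrices are named CTL and EXP and were taken as the wild type and ShhN groups. The libraries held 63760199 and 69470062 UMIs over 737280 listed barcodes each. Cells had at least 10% of the 99th percentile of UMIs of the top 3000 barcodes, at least 800 genes and at most 10% mitochondrial UMIs. Scrublet calls (4.05% and 2.91%) were removed. Cells were clustered with scanpy 1.11.5 (2000 variable genes, 30 components, Leiden resolution 1), leaving out the members, hedgehog, globin, mitochondrial, Xist and Y-linked genes. A cluster was named from at least 3 raised markers. UMIs were summed per class and library. Level intervals are exact Poisson, ratio intervals exact conditional binomial and shares Clopper-Pearson. A count of 0 was set to 3 in ratios.

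With 1 library per group no test was possible. The members, marker lists and gene lists were chosen with earlier results of these data known. Named beside the members are the genes of each list past the size rule (at most 4 per list), otherwise the 2 with most UMIs, and the 3 most alike in pattern with at least 200 UMIs. The rule was tested on simulated counts for 6712 radial glia genes, where 3 of 6512 unchanged genes passed it. The simulated counts held counting error only, with no variation between samples or libraries. They therefore give no rate of false calls for these data. Some results for single listed genes are not reported here.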

Additional observations from a re-analysis of the deposited data

Results flagged for a closer look

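Sparcl1 had opposite signs in radial glia-like cells and in 4 other classes, where the level was lower in the ShhN library. Against a log2 ratio of 1.09 in radial glia-like cells, it stood at -0.43 in deep layer neuron-like, -0.62 in medial cortex neuron-like, -0.94 in migrating neuron-like and -0.83 in mural-like cells. The difference between classes was not tested, since each group is 1 library. In deep layer neuron-like cells the levels were 95.3 and 70.8 CPM, from 697 and 620 UMIs.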

How the results depend on the processing

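In radial glia-like cells, ratios that moved beyond their counting interval came mainly from settings that drew the class otherwise. The cause was not tested beyond the class sizes. At resolution 0.5 the log2 ratios were -2.87 for Hopx, -2.74 for Tnc, -0.71 for Ptprz1, -2.23 for Bcan, -4.01 for Htra1, -0.71 for Sparcl1 and 2.43 for Entpd2. With clusters from the wild type cells alone (353 and 1318 cells) they were -2.75, -2.68, -0.65, -2.14, -3.94, -0.61 and 2.51 in the same order. With cells chosen by marker counts (95 and 304 cells) they were -1.96 for Hopx, -2.17 for Tnc, -0.40 for Ptprz1, -3.16 for Htra1, -0.27 for Sparcl1 and 2.47 for Entpd2. With free RNA subtracted, taking all globin UMIs of the class as free (4.25% of wild type and 36.7% of ShhN UMIs), they were -0.97 for Hopx, -0.61 for Tnc and 0.38 for Ptprz1. The number of members higher by the size rule, 2 as reported, was 1 in each of the first 3 settings, after thinning and without the one-library sub-clusters (added after seeing the data), and 0 without Mki67 or Top2a cells (also added) and with a minimum of 200 UMIs. The number lower, 4 as reported, was 2 with free RNA subtracted and 1 with the minimum of 200 UMIs. For this count a loss of 1 member was not taken as a move. Tnc also lost its call without the one-library sub-clusters and without Mki67 or Top2a cells.

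In Eomes progenitor-like cells Bcan moved to 0.053 with doublets kept, 0.11 without clusters mostly of 1 library, -0.62 with wild type clusters and -2.49 after thinning. Ptprz1 moved to 0.94 with at most 5% mitochondrial UMIs and -0.11 at resolution 0.5. Sparcl1 moved to -0.72 with doublets kept, -0.71 at resolution 0.5 and -1.88 with marker counts. The number of members lower, 1 as reported, was 2 with a minimum of 20 UMIs. It was 0 with doublets kept, wild type clusters, marker counts, free RNA subtracted, thinning, clusters mostly of 1 library left out, clusters led by Eomes only and a minimum of 200 UMIs.

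No paired analysis was possible because the matrices do not say which of the 4 samples a cell came from, and leaving out a replicate was not run for the same reason. With 1 library per group, differences between libraries, batches and groups cannot be told apart. Nor can ShhN and electroporation, since the labels give none for the wild type. Depth limits the members in Eomes progenitor-like cells, where 4 of 7 had fewer than 50 UMIs.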

Other observations

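Cells like glial or olfactory bulb intermediate progenitors, led by Olig1 and Olig2, numbered 28 (wild type) and 401 (ShhN), so each wild type value below rests on few cells. Bcan stood at 51.5 [28.8, 85.0] CPM in the wild type and 17.6 [13.4, 22.8] in ShhN. Ptprz1 stood at 392 and 246, and Sparcl1 at 85.9 and 10.6. Hopx had 5 and 10 UMIs and Tnc 8 and 4. Entpd2 had 0 UMIs in both libraries, although Ptch1 was among the leading genes of the cluster. Htra1 had 0 and 2.

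In Cajal-Retzius-like cells Entpd2 had 8 UMIs among 70 wild type and 2 among 30 ShhN cells, or 11.6 and 6.74 CPM with overlapping intervals. In the wild type this was the highest level of Entpd2 in any class of at least 30 cells, and its interval overlapped that of radial glia-like cells. Single radial glia-like cells held up to 13 Hopx UMIs in the wild type and up to 4 in ShhN. For Entpd2 the highest count in 1 cell was 1 in the wild type and 4 in ShhN.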
